A study of Mus musculus with 12 samples.

Results

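Transcripts of 10 genes of the BCL2 family, which decide whether a cell keeps its mitochondria intact or enters apoptosis, were followed in mouse LSK cells. LSK cells are bone marrow cells that lack lineage markers and carry Sca1 and Kit, a gate that holds haematopoietic stem and multipotent progenitor cells. The members were taken by name, 10 of the 55471 genes in the count table: the survival genes Bcl2, Bcl2l1 and Mcl1, the effectors Bax and Bak1, and the BH3-only genes Bcl2l11, Bbc3, Pmaip1, Bid and Bad. All 10 passed the filter on low counts. The cells were isolated from mice after a primary transplant, 6 weeks after tamoxifen, as 12 libraries in 6 groups of 2. One experiment set WT beside HOXA9_KO (homeobox gene Hoxa9), Bcat_KO (Ctnnb1, which encodes β-catenin) and dKO (Ctnnb1 together with Hoxa9). The other had PRMT1_KO (the arginine methyltransferase gene Prmt1) with controls of its own, WT_PRMT1. Genotypes are called KO in the sample titles and knockdown in the genotype field. The labels state no strain, age, allele or driver of recombination, and do not say whether libraries are separate animals, so p-values may cover technical spread only.

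BCL2, BCL-XL (encoded by Bcl2l1) and MCL1 hold the effectors BAX and BAK in check. BAX and BAK, once active, form pores in the outer mitochondrial membrane and release cytochrome c, and the BH3-only proteins start the process by binding the survival proteins or the effectors. In blood-forming stem cells MCL1 is known to be required for survival, and BIM (encoded by Bcl2l11) is known as the main BH3-only protein of cytokine withdrawal. Much of the family's control acts on proteins, and several members have isoforms of opposite or different strength. Counts per gene show neither.

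All positions are on GRCm38. Among the survival genes, Bcl2 (ENSMUSG00000057329) lies on chromosome 1 from 106538178 to 106714274, minus strand. Bcl2l1 (ENSMUSG00000007659) lies on chromosome 2 from 152780668 to 152831728, minus strand, and Mcl1 (ENSMUSG00000038612) on chromosome 3 from 95658788 to 95663176, plus strand. The effector Bax (ENSMUSG00000003873) lies on chromosome 7 from 45461697 to 45466898, minus strand, and Bak1 (ENSMUSG00000057789) on chromosome 17 from 27019810 to 27029009, minus strand. Among the BH3-only genes, Bcl2l11 (ENSMUSG00000027381) lies on chromosome 2 from 128126038 to 128162547, plus strand, and Bbc3 (ENSMUSG00000002083) on chromosome 7 from 16308393 to 16318205, plus strand. Pmaip1 is ENSMUSG00000024521. Bid (ENSMUSG00000004446) lies on chromosome 6 from 120891930 to 120916853, minus strand, and Bad (ENSMUSG00000024959) on chromosome 19 from 6941861 to 6951899, plus strand.

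Bcl2l11 rose more than any other member in PRMT1_KO and Bcl2l1 fell more than any other, so the 250 bases before the start of each are shown. They are RefSeq windows on GRCm38.p6, read along the gene's own strand, and end at the base before the gene's first base in the count table. Bcl2l11 is chr2:128125788-128126037 (plus strand) and Bcl2l1 is chr2:152831729-152831978 (minus strand). Capitals mark matches to the motifs searched.
Bcl2l11: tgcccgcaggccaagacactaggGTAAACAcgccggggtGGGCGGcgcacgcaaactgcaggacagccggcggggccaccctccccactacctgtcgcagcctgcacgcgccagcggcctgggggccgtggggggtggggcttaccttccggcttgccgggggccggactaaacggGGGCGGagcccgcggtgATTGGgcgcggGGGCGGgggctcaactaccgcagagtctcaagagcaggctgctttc
Bcl2l1: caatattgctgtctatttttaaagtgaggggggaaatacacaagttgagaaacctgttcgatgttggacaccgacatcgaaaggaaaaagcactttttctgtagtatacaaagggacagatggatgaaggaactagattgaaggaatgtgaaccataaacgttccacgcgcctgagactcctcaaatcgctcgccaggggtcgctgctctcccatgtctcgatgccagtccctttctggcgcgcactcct
Motifs were searched on both strands. The FoxO core searched was TGTTTAC and the E-box CACGTG. The GC box was GGGCGG, the STAT site TTCNNNGAA and the E2F core TTTCGCGC. The TATA box was searched with its usual letters TATAAA. The CCAAT box and an NRF1-like motif were searched too. The Bcl2l11 window held 1 FoxO core, 1 CCAAT box and 3 GC boxes, none overlapping another, whereas the Bcl2l1 window held no match to any of the 8. Among 32851 RefSeq windows of the same length, 3.17% held the FoxO core, 33.9% a CCAAT box and 32.7% a GC box. The shares for the other motifs were 12.4% for the TATA box, 6.02% for the E-box, 7.02% for the STAT site, 0.256% for the E2F core and 3.74% for the NRF1-like motif. Of the 9 members with a window, Bcl2l11 alone held the FoxO core, and 7 held a GC box. Only the window nearest each gene's first base was searched, 1 of 3 for Bcl2l1 and Bbc3 and 1 of 2 for Bcl2l11 and Bad. The window of Bbc3 lay 1190 bases from that base. The 32851 windows include alternative ones of the same gene. These are letter matches, not shown to be bound.

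Library depth ran from 17569700 to 40553900 counts (to 6 digits). Levels are given as CPM, counts scaled to library size after TMM normalisation. Hoxa9 stood at 58.7 and 59.9 CPM in WT and ranged from 8.36 to 12.2 in the 4 HOXA9_KO and dKO libraries. Ctnnb1 measured 315 and 342 CPM in WT against 276 and 267 in Bcat_KO and 227 and 235 in dKO, so its mRNA was lowered only in part. Prmt1 was at 283 and 292 CPM in WT_PRMT1, compared with 118 and 112 in PRMT1_KO. All 8 LSK gate markers were detected in every library. Xist, expressed from the inactive X, was at 163 to 202 CPM in the 4 control libraries and at 0 to 21.9 in the 8 others, and the Y-linked Ddx3y was at 0.792 to 2.87 against 60.6 to 93.5. Each comparison of a knockout with its controls therefore cannot be told apart from one of sex, whereas dKO with HOXA9_KO, dKO with Bcat_KO and WT_PRMT1 with WT compare groups alike in Ddx3y, although Bcat_KO kept 11.2 and 21.9 CPM of Xist.

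Per kilobase of merged exon, Mcl1 was the most abundant member in every library, at 165 to 453 RPKM. Bak1 followed at 29.9 to 50.3 RPKM, then Bax at 16.3 to 24.0 and Bbc3 at 12.2 to 24.5, whose ranges overlap. Bid ran from 8.91 to 18.4 RPKM, Bad from 9.01 to 14.6 and Pmaip1 from 3.86 to 15.4, and these also overlap. Bcl2 (5.53 to 7.94 RPKM) and Bcl2l1 (4.13 to 8.72 RPKM) lay close together. Bcl2l11 was the lowest member in the 10 libraries outside PRMT1_KO, at 1.33 to 2.44 RPKM. In PRMT1_KO it reached 11.1 and 11.8 RPKM, above Bcl2 and Bcl2l1. Merged exon length includes long 3′ ends and alternative exons, which lowers the RPKM of genes such as Bcl2, Bcl2l1 and Bcl2l11.

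**Figure D1:**
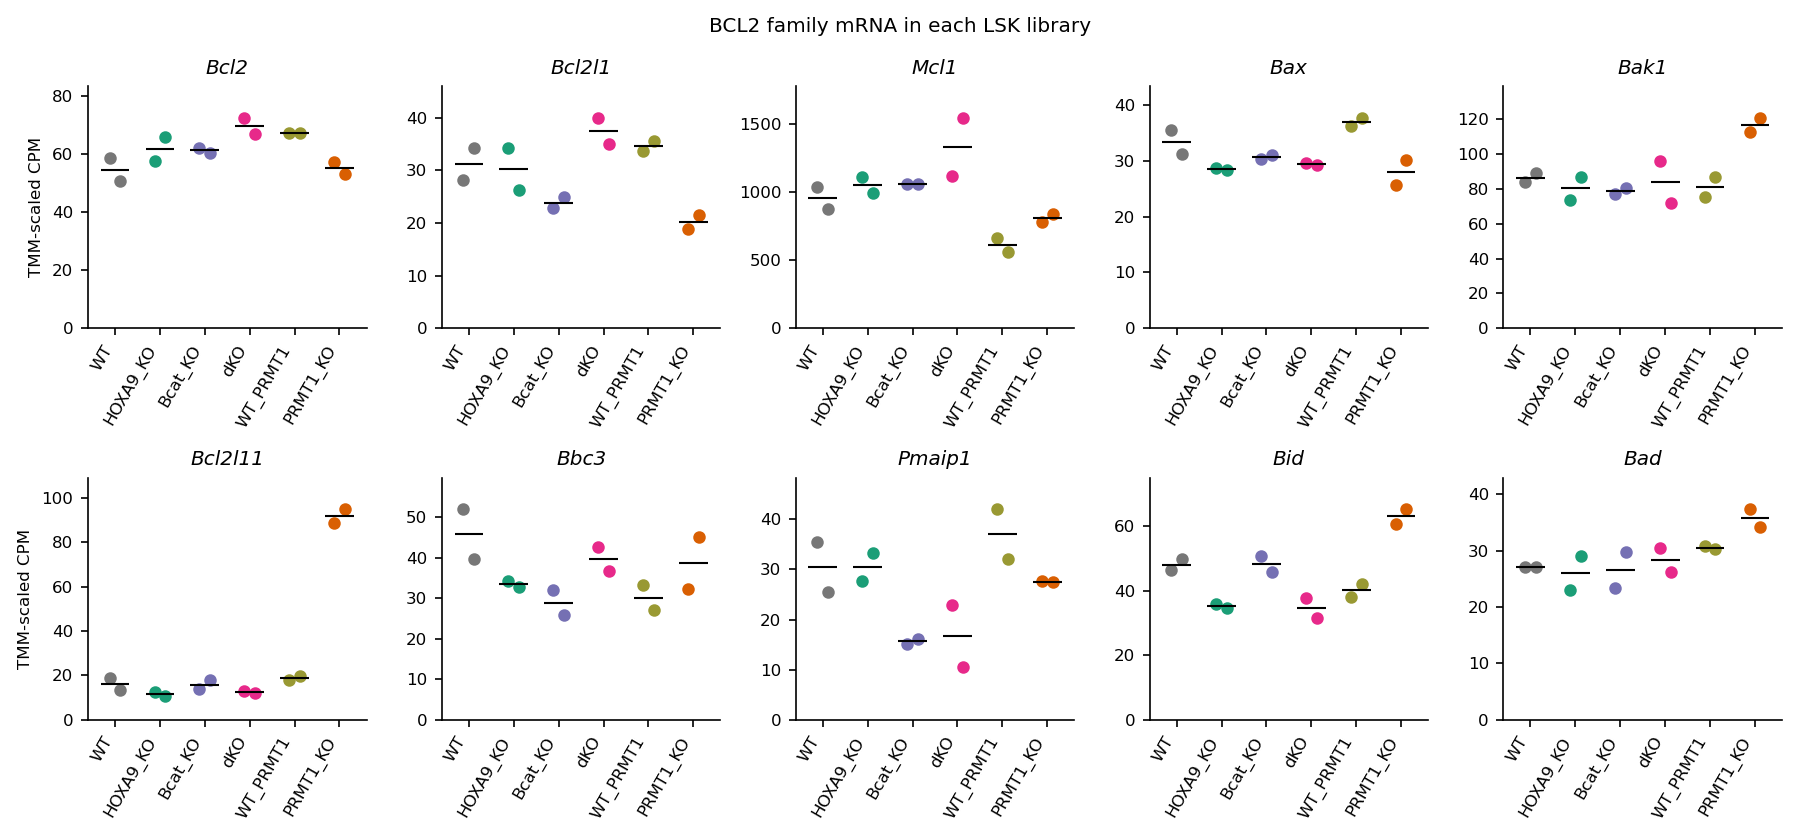
TMM-scaled CPM of each of the 10 members (vertical axis, from 0, with its own scale per panel) in the 6 groups. Points are libraries and bars are group means. Bcl2l11 stands at 88.8 and 95 CPM in PRMT1_KO and at no more than 19.6 CPM in any other library.

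The comparison of PRMT1_KO with WT_PRMT1 asked what loss of Prmt1 did to the family, and it held the largest change of any member. Bcl2l11, Bid, Bak1 and Mcl1 rose and Bcl2l1 and Bax fell, at an adjusted p under 0.05 by edgeR's quasi-likelihood test. That was 4 members higher, where 16.1% of all 17063 genes tested were called higher, and 2 lower, where 15.6% were. The members' median log2 change was 0.29, against -0.03 over all genes. Neutrophil markers (10 of 10 higher in both PRMT1_KO libraries, summed level 4168 to 4401 CPM against 1232 to 1335) and megakaryocyte markers (10 of 10, 1449 to 1485 against 370.0 to 376 CPM, with Gp1bb at 0 in WT_PRMT1) moved with this comparison. So did erythroid markers (7 of 10 lower and 3, Car1, Klf1 and Ermap, higher, summed level 86.7 to 87.5 against 599 to 673 CPM). Endothelial and stromal markers did too (8 of 10 lower and 1 higher, 177 to 186 against 417 to 691 CPM). Their part in the members' changes was not tested, and in bulk RNA fewer cells of a type cannot be told apart from less RNA per cell.

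Among the BH3-only genes, Bcl2l11 was at 18 and 19.6 CPM in WT_PRMT1, compared with 88.8 and 95 in PRMT1_KO. The groups were far apart relative to the spread within each. The log2 change was 2.29 ± 0.19 (SE, 2 libraries per group), a 4.89-fold rise with an adjusted p of 9.18e-06 by edgeR. It remained called under all 14 alternative analyses, with changes of 2.15 to 2.37. Among the 17063 genes it ranked 213 by p and 574 by size of the log2 rise. Bid, whose protein is cut by caspase-8 and then acts on mitochondria, was at 37.9 and 42.2 CPM in WT_PRMT1, compared with 60.7 and 65.2 in PRMT1_KO. The groups did not overlap, and the rise was 0.65 ± 0.12 (adjusted p = 0.00136), called under all 14 alternatives. Bid shares 628 exon bases with Bcl2l13 on the opposite strand, a gene with 1221 to 2843 counts per library that also rose here by 0.25 ± 0.08 (adjusted p = 0.0392, called in 8 of 14 alternatives). No source states the strand setting of the counting, so reads in that overlap cannot be assigned to Bid with certainty.

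The other BH3-only genes gave no call by edgeR with all groups fitted. Bbc3, which encodes the p53 target PUMA, was at 33.3 and 27.0 CPM in WT_PRMT1, compared with 32.2 and 45.0 in PRMT1_KO, with overlapping groups (0.36 ± 0.19, adjusted p = 0.190). Pmaip1, which encodes NOXA, a partner chiefly of MCL1, was at 42.1 and 32 CPM against 27.7 and 27.4 (-0.43 ± 0.30, adjusted p = 0.316), called in 1 of 14 alternatives, with only those groups fitted (0.0372). Bad, whose protein is held inactive by phosphorylation under growth factor signalling, was at 30.8 and 30.3 CPM against 37.4 and 34.2 (0.23 ± 0.16, adjusted p = 0.313). Bad also shares 524 exon bases with Gpr137 on the opposite strand. The rise within this class was thus carried by Bcl2l11 and Bid.

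Of the survival genes, Bcl2l1 was at 33.6 and 35.5 CPM in WT_PRMT1, compared with 18.9 and 21.4 in PRMT1_KO, the lowest values of the gene in the series. The groups did not overlap, and the change was -0.77 ± 0.16 (adjusted p = 0.00345), called under all 14 alternatives. Mcl1 moved the other way, from 664 and 562 CPM to 782 and 842, a rise of 0.41 ± 0.14 (adjusted p = 0.0483). This call was lost in 6 of 14 alternatives, among them library-size scaling (0.27, adjusted p = 0.233) and leaving out WT_PRMT1 S11 (0.253), PRMT1_KO S8 (0.0822) or PRMT1_KO S9 (0.197). Bcl2 was at 67.5 and 67.3 CPM against 57.5 and 53.1, without overlap (-0.29 ± 0.10, adjusted p = 0.0567). Bcl2 passed the threshold in 5 of 14 alternatives, among them library-size scaling (0.00554) and limma-voom (0.0286), with changes of -0.43 to -0.23. Thus the survival genes did not move together.

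Nor did the effectors. Bak1 was at 75.6 and 86.9 CPM in WT_PRMT1, compared with 113 and 121 in PRMT1_KO, the highest values of the gene in the series. It rose by 0.53 ± 0.13 (adjusted p = 0.0108), a call lost without WT_PRMT1 S10 (0.0899) or PRMT1_KO S9 (0.0739). Bax was at 36.2 and 37.8 CPM against 25.7 and 30.2, and the change was -0.40 ± 0.12 (adjusted p = 0.0253). The Bax call was lost with no filter on low counts (0.157) and without WT_PRMT1 S10 (0.0910), WT_PRMT1 S11 (0.168) or PRMT1_KO S8 (0.246). The ratio of Bax to Bak1 RPKM went from 0.664 and 0.732 to 0.347 and 0.381.

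**Figure D2:**
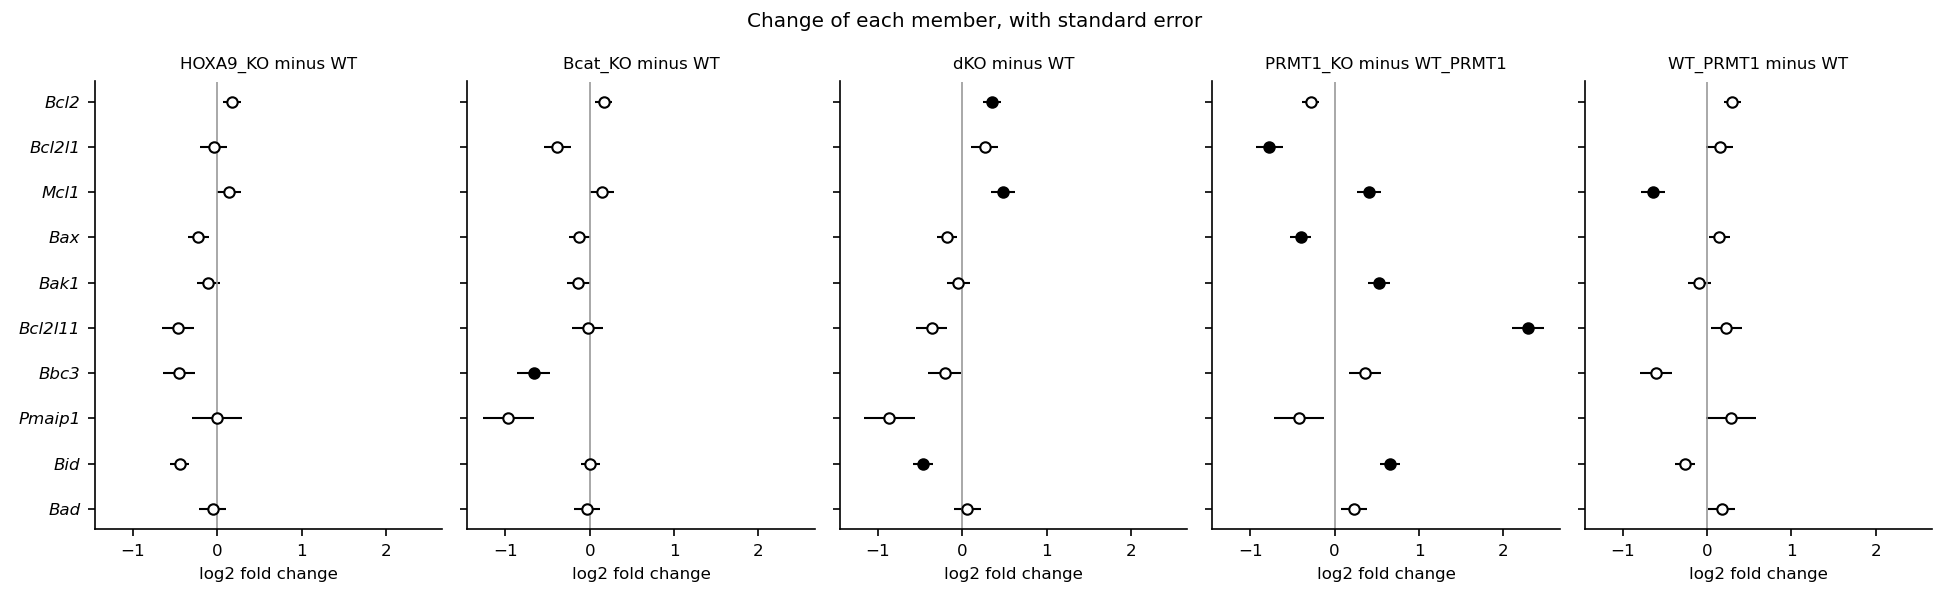
Log2 fold change (horizontal axis) of each member in 5 comparisons, with bars of 1 standard error. Filled points have an adjusted p under 0.05. PRMT1_KO has 6 filled points, dKO 3, Bcat_KO and WT_PRMT1 minus WT 1 each, and HOXA9_KO none.

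By RPKM all 3 survival genes were lower relative to Bcl2l11 in PRMT1_KO than in WT_PRMT1, and Bcl2l11 exceeded Bcl2 and Bcl2l1 there but not Mcl1. The ratio of Bcl2 to Bcl2l11 RPKM went from 3.01 and 3.29 in WT_PRMT1 to 0.490 and 0.568 in PRMT1_KO. The ratio of Bcl2l1 to Bcl2l11 went from 3.17 and 3.26 to 0.373 and 0.395. Mcl1, which rose itself, still exceeded Bcl2l11 by 20.7 and 20.8 times in PRMT1_KO, compared with 67.4 and 86.6 times in WT_PRMT1. In the other experiment, both dKO libraries had higher ratios than both WT libraries for all 3 survival genes. Both HOXA9_KO libraries did too for Mcl1 (208 and 218 against 129 and 155) and Bcl2 (4.02 and 5.42 against 2.74 and 3.35), but not for Bcl2l1. The ratios share Bcl2l11 as denominator, which was called in neither dKO nor HOXA9_KO. Merged exon lengths enter every ratio equally across groups, so the change between groups does not depend on them. The share of the members' summed RPKM held by survival genes was 63.6% ± 2.51 (SD, n = 2) in WT_PRMT1 and 64.3% ± 0.390 in PRMT1_KO, since Mcl1 dominates the sum.

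**Figure D3:**
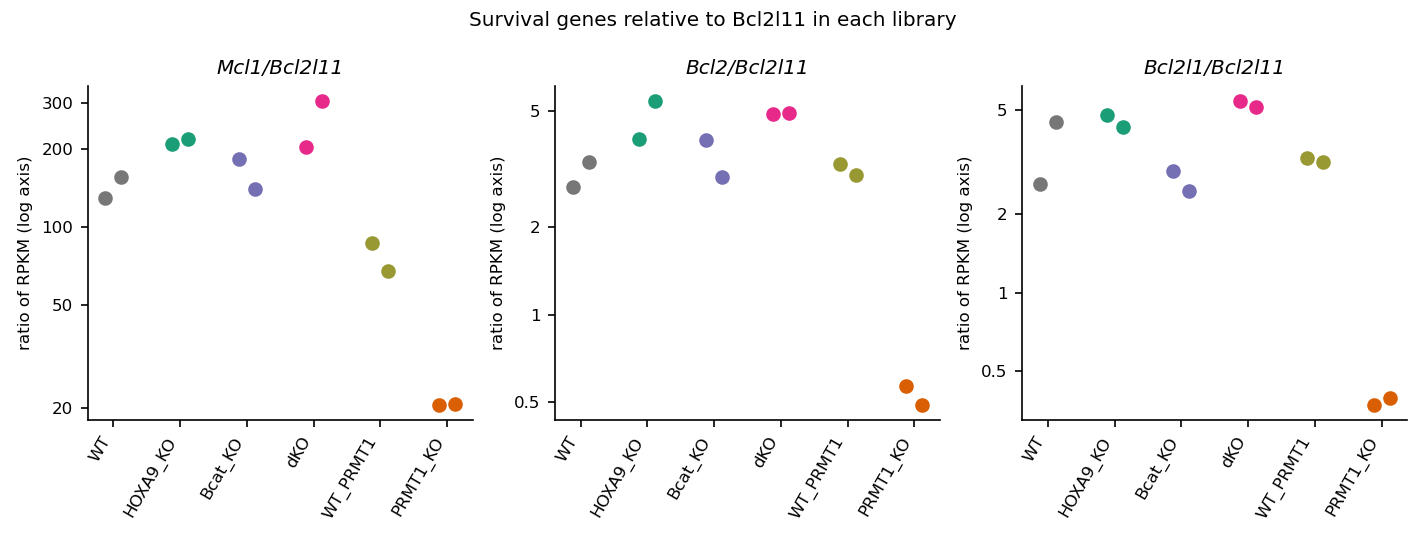
Ratio of Mcl1, Bcl2 and Bcl2l1 RPKM to Bcl2l11 RPKM in each library (log axis, points are libraries). PRMT1_KO lies below every other group in all 3 panels, at 20.7 and 20.8 for Mcl1, 0.490 and 0.568 for Bcl2, and 0.373 and 0.395 for Bcl2l1.

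In dKO against WT, which asked what joint loss of β-catenin and Hoxa9 did, Bcl2 and Mcl1 rose and Bid fell. That was 2 members higher, against 8.6% of all genes, and 1 lower, against 7.86%. The members' median log2 change was -0.11, against 0.01 over all genes. Bcl2 was at 58.8 and 50.7 CPM in WT, compared with 72.7 and 67.1 in dKO, without overlap, a rise of 0.35 ± 0.10 (adjusted p = 0.0390 by edgeR). Leaving out any 1 of the 4 libraries ended that call, as did using no filter on low counts (adjusted p = 0.0768 by edgeR). Mcl1 was at 1037 and 877 CPM in WT, compared with 1119 and 1549 in dKO, a rise of 0.48 ± 0.14 (adjusted p = 0.0400). The high value was dKO S7 alone, and without it the change was 0.22 (adjusted p = 0.376). The call was also lost without WT S2 (0.222), with library-size scaling (0.0737) and with robust estimation (0.0698). Bid was at 46.2 and 49.8 CPM in WT, compared with 37.8 and 31.6 in dKO, a change of -0.47 ± 0.12 (adjusted p = 0.0184). For Bid the call ended on leaving out WT S1 (0.0621), WT S2 (0.184) or dKO S7 (0.165). All 3 calls were lost when only the WT and dKO libraries were fitted.

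The remaining members gave no call in dKO by edgeR with all libraries. Pmaip1 was at 35.5 and 25.5 CPM in WT, compared with 23.0 and 10.6 in dKO, with the low value in dKO S7 (-0.86 ± 0.30, adjusted p = 0.0772). It was called in 4 of 14 alternatives, DESeq2 (0.00780), limma-voom (0.0389), no filter (0.000180) and without dKO S6 (0.000987). The change was -1.54 without dKO S6 and -0.42 without dKO S7. Bcl2l11 was at 18.8 and 13.3 CPM in WT, compared with 13 and 12 in dKO (-0.36 ± 0.19, adjusted p = 0.231). Bcl2l1, Bax, Bak1, Bbc3 and Bad lay between -0.21 and 0.27. B cell markers summed to 4409 and 9092 CPM in WT and to 43519 and 19536 in dKO, although 7 of 10 were lower in both dKO libraries and 2 were higher. Megakaryocyte markers were higher for 8 of 10 genes (1623 to 1831 against 492 to 541 CPM). The part of these markers in the dKO values was not tested.

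The single knockouts share their WT libraries with dKO, so the 3 comparisons are not independent. In HOXA9_KO, 0 of 10 members were called, where 3.62% of all genes were called higher and 1.71% lower. Megakaryocyte markers were higher in both HOXA9_KO libraries for 8 of 10 genes (1144 to 1208 against 492 to 541 CPM) and erythroid markers lower for 8 of 10 (176 to 272 against 335 to 1272 CPM). B cell markers were lower for 6 of 10 and higher for 2, although they summed to 15353 to 22504 CPM against 4409 to 9092. The part of these markers in the HOXA9_KO values was not tested. By edgeR 3 members had an unadjusted p under 0.05, and DESeq2 and limma-voom each called 1. The nearest was Bid, at 46.2 and 49.8 CPM in WT, compared with 35.9 and 34.6 in HOXA9_KO, without overlap (-0.45 ± 0.12, adjusted p = 0.0509). Bid passed the threshold in 7 of 14 alternatives. Its values in HOXA9_KO and dKO were close, and dKO minus HOXA9_KO was -0.02 ± 0.12 (adjusted p = 0.972). Bcl2l11 (12.6 and 10.7 CPM, -0.47 ± 0.19, adjusted p = 0.201) and Bbc3 (34.2 and 32.9 CPM, -0.45 ± 0.19, adjusted p = 0.228) were lower than both WT libraries but gave no call.

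In Bcat_KO 1 member was called lower, where 9.01% of all genes were, and none higher, where 6.69% were. Bbc3 was at 52.0 and 39.7 CPM in WT, compared with 32 and 25.8 in Bcat_KO, without overlap, a change of -0.67 ± 0.19 (adjusted p = 0.0401 by edgeR). This call was lost without WT S1 (0.219) or Bcat_KO S4 (0.182), with library-size scaling (0.0518) and when only the 2 groups were fitted (0.0526). Pmaip1 was at 35.5 and 25.5 CPM in WT, compared with 15.2 and 16.1 in Bcat_KO, with the groups well apart (-0.96 ± 0.30, adjusted p = 0.0510), and passed in 7 of 14 alternatives. Both genes are known p53 targets. Of 20 p53 targets outside the family, 1 rose in Bcat_KO, Mdm2 by 0.72 (adjusted p = 0.00277 by edgeR). Another 3 fell, among them Ccng1 at -0.53 (adjusted p = 0.00277). Trp53 mRNA was at 208 and 215 CPM in WT, compared with 209 and 203 in Bcat_KO. It does not show p53 protein, and the part of p53 in these values was not tested. Bid was at 50.8 and 45.8 CPM, close to WT (0.01 ± 0.12). In Bcat_KO erythroid markers were lower in both libraries for 10 of 10 genes (29.9 to 45.2 against 335 to 1272 CPM), with Slc4a1 at 0 in Bcat_KO S4. Of 10 neutrophil markers 8 were lower, with Ltf, Mmp9 and Retnlg at 0, and 2 were higher, Mpo at 1030 and 958 CPM against 413 and 322 and Elane at 109 and 120 against 74.4 and 33.7. Their summed level, 1106 to 1155 CPM, lay within the WT range of 790 to 2175. B cell markers were lower for 8 of 10 genes and higher for 1, although they summed to 9355 to 12529 CPM against 4409 to 9092. Megakaryocyte markers were higher for 6 of 10 genes and lower for 2 (714 to 715 against 492 to 541 CPM). The part of these markers in the Bcat_KO values was not tested.

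The dKO libraries were also set against each single knockout. Against HOXA9_KO, 0 of 10 members were called, where 0.24% of all genes were called higher and 1% lower. By edgeR 2 members, Mcl1 and Pmaip1, had an unadjusted p under 0.05. DESeq2 called Pmaip1 (0.0380) and limma-voom called 0. Without dKO S6 both were called, Mcl1 at 0.0313 and Pmaip1 at 0.00482. Against Bcat_KO 1 member was higher, where 15.9% of genes were, and 1 lower, where 11.5% were. Bcl2l1 was at 22.7 and 24.9 CPM in Bcat_KO, compared with 40.0 and 35.0 in dKO, a difference of 0.65 ± 0.16 (adjusted p = 0.0118). Its call was lost without Bcat_KO S3 (0.0607) or dKO S6 (0.0707). Bid, at 50.8 and 45.8 CPM against 37.8 and 31.6, differed by -0.48 ± 0.12 (adjusted p = 0.0120). The Bid call was lost with only the groups compared fitted (adjusted p = 0.0692 by edgeR). It was also lost without Bcat_KO S3 (change -0.37) or dKO S7 (change -0.36). Mcl1 gave no call (0.33, adjusted p = 0.104) but passed in 3 of 14 alternatives, 1 of them without dKO S6 (0.00666). Bid was thus below both WT and both Bcat_KO libraries in all 4 libraries in which Hoxa9 was targeted. In WT_PRMT1, where Hoxa9 was not targeted, Bid was at 37.9 and 42.2 CPM, the first close to dKO S6 at 37.8. Bcl2l13, which overlaps Bid, was at -0.25 in dKO against WT (adjusted p = 0.0682 by edgeR), so the limit on assigning reads to Bid holds here too.

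A departure from additivity compares the dKO change with the sum of the single knockout changes. Because WT alone among the groups used was low in Ddx3y, a departure cannot be told apart from a difference of sex. Ddx3y itself departed by -4.60 and Xist by 4.04 on the log2 scale. A departure was called for 0 of 10 members by edgeR, where 3.99% of all genes were called higher and 3.04% lower. Unadjusted p was under 0.05 for 2 members, and DESeq2 called 2. Those nearest the threshold were Bbc3, whose dKO level was above the sum by 0.91 ± 0.27 (adjusted p = 0.0696), and Bcl2l1, above by 0.70 ± 0.22 (adjusted p = 0.0865). Bbc3 passed in 3 of 18 alternatives and Bcl2l1 in 1. Bbc3 was at 42.7 and 36.7 CPM in dKO, higher than in either single knockout (25.8 to 34.2 CPM).

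The changes in dKO and PRMT1_KO were compared directly, each against its own controls. The dKO change was higher than the PRMT1_KO change for 2 members, where 7.38% of all genes were called, and lower for 2, where 7.04% were. Bcl2l11 differed by -2.65 ± 0.26 (adjusted p = 0.000149) and Bid by -1.12 ± 0.16 (adjusted p = 0.00145), both called under all 18 alternatives. Bid fell in dKO and rose in PRMT1_KO. Bcl2l1 differed by 1.04 ± 0.23 (adjusted p = 0.0110) and Bcl2 by 0.64 ± 0.15 (adjusted p = 0.0144), with positive log2 changes in dKO and negative ones in PRMT1_KO. The Bcl2l1 call was lost without WT S1 (0.0549), WT_PRMT1 S11 (0.0544) or PRMT1_KO S8 (0.0519), and the Bcl2 call in 5 of 18 alternatives. Mcl1 had similar changes in both, and the difference of 0.07 ± 0.20 had an adjusted p of 0.863. Bak1 differed by -0.57 (adjusted p = 0.0679) and passed in 5 of 18 alternatives, 1 of them without dKO S6 (0.00709).

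**Figure D4:**
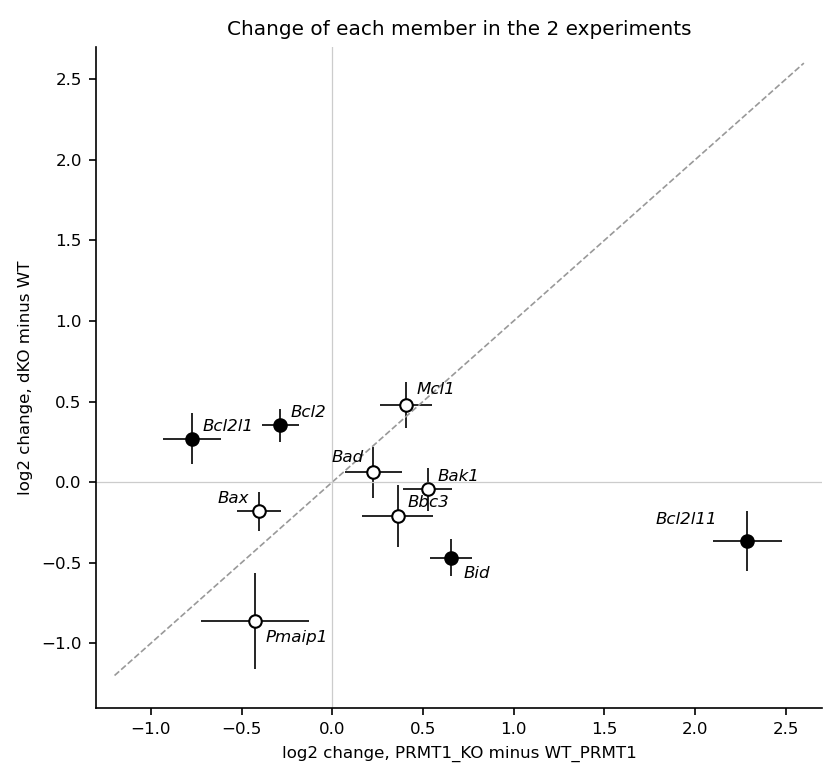
Log2 change of each member in PRMT1_KO (horizontal axis) and dKO (vertical axis), each against its own controls, with bars of 1 standard error and a dashed line of equal change. Filled points are the 4 members whose changes differed at an adjusted p under 0.05. Bcl2l11 lies far to the right, at 2.29 and -0.36.

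The control groups differed from each other in 1 member, lower in WT_PRMT1, where 3.21% of all genes were called lower and 3.45% higher. By edgeR 4 members, Mcl1, Bbc3, Bcl2 and Bid, had an unadjusted p under 0.05. Mcl1 was at 1037 and 877 CPM in WT, compared with 664 and 562 in WT_PRMT1 (-0.64 ± 0.14, adjusted p = 0.0209). The call was lost without WT S1 (0.139) or WT_PRMT1 S11 (0.165). Bbc3, at -0.61 (adjusted p = 0.0959), passed in 4 of 14 alternatives. Both PRMT1_KO libraries, at 782 and 842 CPM, lay below both WT libraries of the other experiment, although Mcl1 rose against its own controls. Bcl2 was higher in WT_PRMT1 than in WT by 0.30 ± 0.10 (adjusted p = 0.123 by edgeR), without overlap. Bid differed by -0.26 ± 0.12 (adjusted p = 0.239), also without overlap. Bcl2 in PRMT1_KO (57.5 and 53.1 CPM) was close to WT (58.8 and 50.7). Such control differences enter the difference between the dKO and PRMT1_KO changes.

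Other genes of the pathway were taken from lists. Over all genes tested, 16.1% were called higher and 15.6% lower in PRMT1_KO, and 8.6% and 7.86% in dKO. For HOXA9_KO the shares were 3.62% and 1.71%, and for Bcat_KO 6.69% and 9.01%. The lists were not tested against these shares. Of 15 further BCL2 family genes, 13 were tested, and in PRMT1_KO 3 rose and 3 fell. Bmf, a BH3-only gene, was at 2.26 and 4.23 CPM in WT_PRMT1, compared with 23.5 and 26.0 in PRMT1_KO, a rise of 2.92 ± 0.55 (adjusted p = 0.00194 by edgeR). Bok, a relative of Bax and Bak1, was at 15.1 and 12.5 CPM against 1.72 and 1.87 (-2.94 ± 0.23, adjusted p = 7.37e-06), and the mitophagy receptor Bnip3l rose by 0.40 ± 0.08. Bcl2a1a was at 4.53 and 3.15 CPM in WT_PRMT1 and at 0 in PRMT1_KO, but it belongs to a cluster of near-identical copies among which reads can be split, as does Bcl2a1d. Bok also fell in dKO, to 4.65 and 4.40 CPM from 14.0 and 16.5 (-1.75 ± 0.22, adjusted p = 0.000334), where 1 gene of the list rose and 1 fell. In HOXA9_KO 1 rose and 1 fell. In Bcat_KO edgeR called 0 of the 13, with 3 at an unadjusted p under 0.05, limma-voom called 0 and DESeq2 called 1, Bcl2a1a (adjusted p = 0.0230).

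Of 19 tested regulators and mitochondrial partners of the family's proteins, 6 rose and 6 fell in PRMT1_KO. Dynll1, a dynein light chain to which BIM is known to bind, was at 176 and 188 CPM in WT_PRMT1, compared with 54.1 and 55.7 in PRMT1_KO (-1.73 ± 0.10, adjusted p = 1.28e-06). Dynll2, the light chain that binds BMF, was at 241 and 223 CPM against 156 and 163 (-0.54 ± 0.09, adjusted p = 0.000764), and was singled out after its values were seen. Dynll1 was lower in the 3 other knockout groups too, by -0.59 in HOXA9_KO, -0.48 in Bcat_KO and -1.01 in dKO, all called. Without WT S2 the calls in HOXA9_KO (adjusted p = 0.0738) and Bcat_KO (0.0931) were lost, and without Bcat_KO S3 the latter (0.0517). In those groups the list gave 2 higher and 2 lower, 1 higher and 3 lower, and 2 higher and 2 lower. In PRMT1_KO, then, both light chains were lower while Bcl2l11 and Bmf were higher.

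**Figure D5:**
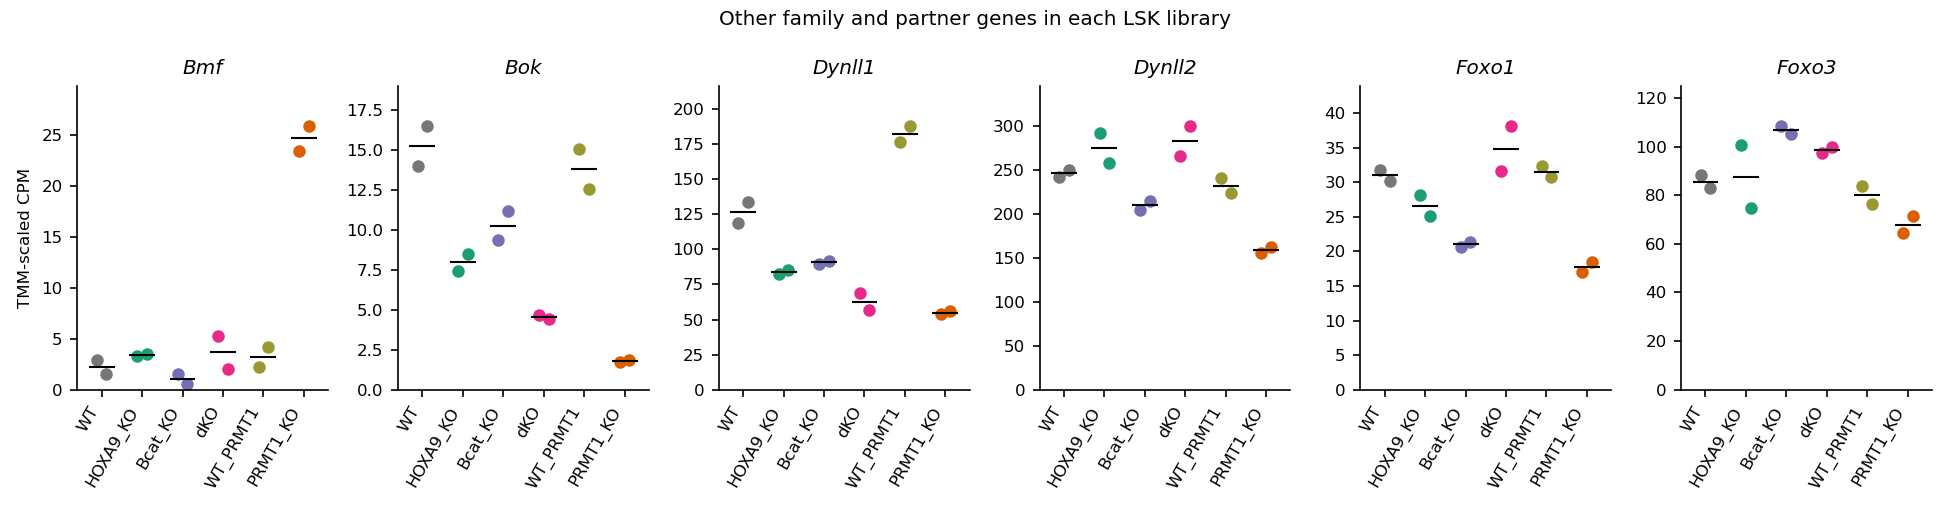
TMM-scaled CPM (vertical axis, from 0) of Bmf, Bok, Dynll1, Dynll2, Foxo1 and Foxo3 in the 6 groups, with libraries as points and group means as bars. Bmf is at 23.5 and 26.0 CPM in PRMT1_KO and at no more than 5.27 elsewhere, and Dynll1 is lowest in PRMT1_KO and dKO.

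Of 17 tested transcription factors known to act on these genes, 6 rose and 5 fell in PRMT1_KO. Stat3 was at 94.5 and 86.9 CPM in WT_PRMT1, compared with 333 and 319 in PRMT1_KO (1.85 ± 0.12), Myc rose by 0.75 ± 0.12 and E2f1 fell by 0.93 on the log2 scale. FoxO factors are known to activate Bcl2l11. Foxo1 and Foxo3 were picked out after the values were seen, because of the motif described above. Foxo4, also in the list, is not given here for PRMT1_KO, and it fell in Bcat_KO (-0.52, adjusted p = 0.00373 by edgeR). Foxo1 was at 32.3 and 30.7 CPM in WT_PRMT1, compared with 17.0 and 18.4 in PRMT1_KO (-0.83 ± 0.14, adjusted p = 0.000741), and Foxo3 gave no call (-0.24, adjusted p = 0.173). The list gave 2 higher and 4 lower in dKO, 2 and 2 in HOXA9_KO, and 5 and 2 in Bcat_KO. Of 20 p53 targets outside the family, 6 rose and 4 fell in PRMT1_KO, among them Sesn1 (1.82 ± 0.11), Ddit4 (1.44 ± 0.11) and Rrm2b (-1.47 ± 0.22). In dKO 4 rose, Cdkn1a by 0.87 ± 0.13, and 4 fell, in HOXA9_KO 1 rose and 1 fell, and in Bcat_KO 1 rose and 3 fell. Of 17 genes of the apoptosome, caspases and their inhibitors, 2 rose and 4 fell in PRMT1_KO and 1 rose and 3 fell in dKO, by edgeR. In either single knockout edgeR called 0 of the 17. The unadjusted p was under 0.05 for 6 of them in HOXA9_KO, where DESeq2 and limma-voom each called 2, and for 7 in Bcat_KO, where DESeq2 called 5 and limma-voom 1. Birc5, which encodes survivin, fell in both, from 124 and 104 CPM to 57.0 and 41.7 in PRMT1_KO and from 103 and 102 to 54.3 and 39.6 in dKO.

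The genes whose profile over the 12 libraries was most like that of the 4 widest-ranging members were found by Pearson correlation of log2 CPM among 9997 genes. The libraries share their groups, so these values are descriptions. For Bcl2l11 they were Abhd17b (0.983), Slc28a2 (0.977) and Ogfr (0.975). For Mcl1 they were Dpy19l3 (0.981), Atg7 (0.979) and Skil (0.965). For Bcl2l1 they were Irak1bp1 (0.937), Coro2b (0.931) and Rmdn2 (0.910). For Pmaip1 they were Clic4 (0.920), Vpreb1 (0.881) and Atp1b1 (0.876).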

How the data were processed

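The authors deposited a table of raw counts per gene. The submitters' processing notes name Trim Galore 0.6.6, STAR 2.7.6a, featureCounts and the build GRCm38/mm10, and per the labels the library kit was directional. No source used here states the annotation release, strand setting or aligner settings. Even counts made up 67.1 to 75.9% of nonzero values, so both mates appear to have been counted. Columns carry S tags, which name libraries here, and those named control were read as WT. Of 55471 genes, 54937 had coordinates identical to GENCODE M21, all 10 members included.

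The model was edgeR 4.0.16 in R 4.3.3, with filterByExpr at a minimum count of 10 (17063 genes kept), TMM scaling, and a quasi-likelihood fit with a mean per group over all 12 libraries (6 residual degrees of freedom). A call is a Benjamini-Hochberg adjusted p under 0.05 over all genes tested. SE was taken as the size of the log2 change over the root of its F value. RPKM is TMM-scaled CPM per kilobase of merged exons. Replicates of a group differed by more than sampling noise in every group (chi-square per degree of freedom 8.04 to 80.7), and none was a duplicate. The scripts were tested on simulated data.

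Members and the 7 pathway lists were chosen with earlier results of these data known. All 10 members are named. Of each list up to 3 genes with the smallest p per knockout comparison may be named, and others are marked as chosen after their values were seen, as are Bnip3l, Bcl2l13 and Bcl2a1d, which complete the calls of the further family genes, and Trp53. For likeness, genes needed a mean of at least 5 CPM, with a prior count of 2 for log2 CPM. Alternatives were RLE size factors, library-size scaling, a filter at a mean of 5 CPM or none, TMM without mitochondrial and haemoglobin genes, only the groups compared, DESeq2 1.42.0, limma 3.58.1 voom with quality weights, halved counts, and leaving out each library. Robust estimation was added after the data were seen. Figures were drawn with Python 3.11.15, matplotlib 3.10.9 and pandas 2.3.3.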

Additional observations from a re-analysis of the deposited data

Results flagged for a closer look

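Changes in dKO and PRMT1_KO, each against its own controls, differed for 4 members by a test of the difference itself (edgeR's quasi-likelihood test, adjusted over all genes). Bcl2l11 differed by -2.65 on the log2 scale (adjusted p = 0.000149) and Bid by -1.12 (adjusted p = 0.00145), dKO being the lower in both. Bcl2l1 differed by 1.04 (adjusted p = 0.0110) and Bcl2 by 0.64 (adjusted p = 0.0144), dKO being the higher in both.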

How the results depend on the processing

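No called member changed direction in any alternative. Over 90 member values and 1340 alternatives, 46 lost their call and 47 gained one, and 60 values called in neither fit changed sign. In PRMT1_KO, where 6 members were called, only Bcl2l11, Bid and Bcl2l1 kept their call whichever of the 4 libraries was left out. The number called in HOXA9_KO went from 0 to 1 with RLE size factors, TMM without mitochondrial and haemoglobin genes, a mean of at least 5 CPM, DESeq2, voom, halved counts or robust estimation. In Bcat_KO it went from 1 to 2 with TMM without mitochondrial and haemoglobin genes, no filter, DESeq2, voom or halved counts, and ran from 0 to 1 without 1 library. In dKO it went from 3 to 0 when only the groups compared were fitted, and ran from 0 to 3 without 1 library. For dKO minus HOXA9_KO it went from 0 to 2 with no filter and 1 with DESeq2, and ran from 0 to 2 without 1 library. For dKO minus Bcat_KO it went from 2 to 4 with no filter and 1 with only the groups compared, and ran from 0 to 2 without 1 library. The departure from additivity had 1 with no filter, 2 with DESeq2 and 1 with robust estimation. WT_PRMT1 minus WT had 2 with no filter, only the groups compared, DESeq2 or voom, and ran from 0 to 1 without 1 library. The dKO change minus the PRMT1_KO change ran from 2 to 5 without 1 library. The cause was not tested.

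Library-size scaling moved the median of all genes in PRMT1_KO from -0.03 to -0.17 and the split of calls from 2754 higher and 2665 lower to 1979 and 3512. In dKO minus PRMT1_KO changes it moved the split from 1259 and 1202 to 1546 and 859, and in additivity from 681 and 518 to 559 and 704. With all libraries kept, calls over all genes differed by more than 1.5 times as follows. HOXA9_KO had 981 higher and 579 lower with no filter and 933 and 713 with DESeq2, against 618 and 291. For dKO minus HOXA9_KO they were 377 and 443 with no filter, 222 and 391 with DESeq2, and 0 with only the groups compared, against 41 and 171. For additivity they were 1244 and 735 with no filter, 222 and 254 with only the groups compared, 1278 and 880 with DESeq2, and 333 and 411 with voom. WT_PRMT1 minus WT had 885 and 858 with no filter, 1178 and 813 with only the groups compared, 1013 and 856 with DESeq2, and 1079 and 753 with voom, against 589 and 547. For dKO minus Bcat_KO they were 1417 and 1238 with only the groups compared, against 2711 and 1958. Leaving out 1 library moved the calls higher or lower by more than 1.5 times in 35 of 44 fits. Calls in HOXA9_KO ran from 228 to 447 higher and from 93 to 277 lower, moved without HOXA9_KO S4 or either WT library. In Bcat_KO they ran from 343 to 593 and from 636 to 1004, against 1142 and 1538, moved without any of the 4. In dKO they ran from 793 to 1302 and from 610 to 1315, against 1467 and 1341, moved without dKO S7 or either WT library. For dKO minus HOXA9_KO they ran from 30 to 83 and from 36 to 277, moved without HOXA9_KO S5, dKO S6 or dKO S7. For dKO minus Bcat_KO they ran from 1708 to 2139 and from 1113 to 1536, moved without either Bcat_KO library or dKO S7. For additivity they ran from 232 to 599 and from 131 to 433, moved by every library but dKO S7. In PRMT1_KO they ran from 1891 to 2079 and from 1766 to 1827, moved without WT_PRMT1 S11 or PRMT1_KO S8. WT_PRMT1 minus WT ran from 171 to 203 and from 228 to 274, moved by all 4. The dKO minus PRMT1_KO changes ran from 692 to 1097 and from 725 to 1289, moved by every library but dKO S6 and dKO S7.

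No paired analysis was possible because the columns carry S tags and no replicate numbers. With 2 libraries per group, a missed threshold does not show that a member did not change.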

Other observations

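Of 10 receptors for survival cytokines of LSK cells, 7 rose in PRMT1_KO by edgeR, where 16.1% of all genes tested did. Tek, the angiopoietin receptor of stem cells, rose by 1.47 ± 0.14, Kit, the stem cell factor receptor, by 1.17 ± 0.11 and Epor, the erythropoietin receptor, by 2.51 ± 0.33. Kit was at 144 and 139 CPM in WT_PRMT1 and at 330 and 308 in PRMT1_KO. In WT, the controls of the other experiment, Kit was at 271 and 269 CPM. LSK cells are sorted on Kit protein, and its part in these values was not tested. In dKO 4 rose and 2 fell, with Tek higher by 2.40 ± 0.14 and Flt3, which marks multipotent progenitors, at -2.15 ± 0.18. HOXA9_KO and Bcat_KO each gave 3 higher and 2 lower.

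Of 11 tested genes of the death receptor pathway, 3 rose and 1 fell in PRMT1_KO, where 16.1% and 15.6% of all genes did. The tumour necrosis factor receptors Tnfrsf1a and Tnfrsf1b rose by 1.14 ± 0.11 and 1.11 ± 0.15, and Casp8, whose protein cuts BID, changed by -0.65 ± 0.12 (adjusted p = 0.00132). In dKO 2 rose. In HOXA9_KO edgeR called 0 of the 11, with 2 at an unadjusted p under 0.05, and DESeq2 and limma-voom called 0. In Bcat_KO edgeR called 0, with 4 at an unadjusted p under 0.05. There DESeq2 called 2, Casp8 (0.37, adjusted p = 0.0192) and Tnfsf10 (0.64, adjusted p = 0.0176), and limma-voom called Tnfsf10 (0.63, adjusted p = 0.0453). Casp8 passed in 7 of 14 and Tnfsf10 in 6 of 14 alternatives.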
